A study of Mus musculus with 4 samples.

Results

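*Selenbp1* and *Selenbp2* encode the mouse selenium-binding proteins, and their transcription was described in PRO-seq libraries of liver nuclei from WT and *Hdac3* KO mice. The 2 genes were selected on their symbols among the 20642 symbols of the deposited table, and each had 1 transcript there. The pair was proposed with the promoter-proximal difference of *Selenbp2* between the genotypes already known, so the values of *Selenbp2* are given below as a description with no test. *Selenbp1* was tested together with all other active genes. PRO-seq (precision nuclear run-on sequencing) lets engaged polymerases add biotin-labelled nucleotides in isolated nuclei and sequences the RNA they hold, so the reads report where polymerases were transcribing and not how much mRNA had accumulated.

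The mice were C57BL/6 and 14 days old. Both genotypes carried Alb-Cre, a Cre transgene driven by the albumin promoter, which is active in hepatocytes. WT mice were *Hdac3* +/+ with Alb-Cre, and KO mice were *Hdac3* fl/fl or fl/- with Alb-Cre. There were 2 libraries per genotype, named WT1, WT2, KO1 and KO2, and each was made from nuclei pooled from several mice, so that single mice cannot be seen and the spread measured here is that between pools. Other cells of the liver do not express albumin and were in the same nuclei. The labelled genotype could not be read from the targeted gene itself. *Hdac3* gave 665 and 648 normalized gene body reads in the WT libraries and 609 and 582 in the KO libraries (log2 fold change -0.14, SE 0.13, limma adjusted p = 0.413), and its promoter-proximal reads were 130 and 108 against 112 and 211.

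Selenbp1 binds selenium without containing selenocysteine, and it is known as a methanethiol oxidase, an enzyme that turns the sulfur gas methanethiol into hydrogen sulfide, hydrogen peroxide and formaldehyde. Selenbp2 is its close paralog and was first known in mouse liver as a protein that binds acetaminophen metabolites. Neither belongs to the selenoproteins, in which the ribosome inserts selenocysteine at a recoded stop codon. HDAC3, the deleted factor, is a histone deacetylase that works in the NCoR and SMRT corepressor complexes.

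Both genes lie on the plus strand of chromosome 3 (mm10), *Selenbp2* (NM_019414) at chr3:94693573-94704406 and *Selenbp1* (NM_009150) at chr3:94933083-94944758. Their starts are 239510 bp apart. The upstream sequences are shown because the genes are near copies of each other. The sequences below are from RefSeq (GRCm38.p6, plus strand, 5′ to 3′) and run from 250 bases before each annotated start to 30 bases after it, chr3:94932833-94933112 for *Selenbp1* and chr3:94693323-94693602 for *Selenbp2*. Capitals mark bases that differ between the genes or have no counterpart in the other gene, and bases past the end of the alignment stay in lower case.
Selenbp1: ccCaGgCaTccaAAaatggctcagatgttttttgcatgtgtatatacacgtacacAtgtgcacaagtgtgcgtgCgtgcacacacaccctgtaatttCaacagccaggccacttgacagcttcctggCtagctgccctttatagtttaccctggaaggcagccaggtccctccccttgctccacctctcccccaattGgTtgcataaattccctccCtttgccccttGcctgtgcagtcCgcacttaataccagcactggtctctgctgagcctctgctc
Selenbp2: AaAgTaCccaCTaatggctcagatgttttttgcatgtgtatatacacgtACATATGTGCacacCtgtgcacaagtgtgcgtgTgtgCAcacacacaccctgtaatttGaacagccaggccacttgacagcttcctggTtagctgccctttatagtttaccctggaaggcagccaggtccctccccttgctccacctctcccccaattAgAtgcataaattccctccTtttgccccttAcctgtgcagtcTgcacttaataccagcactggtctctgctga
Aligned end to end, the windows of 300 bases shared 90.7% of 300 columns, with 16 substitutions and 2 gaps that held 12 bases in all. The longest identical run was 69 bases. In the alignment, the annotated start of *Selenbp2* lies 10 columns before that of *Selenbp1*. Of the 100 columns just before the *Selenbp2* start, 95 were identical. From that start to the end of the overlap, 49 of 50 columns were identical.

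A few short motifs were searched on both strands of the same windows. TATAAA was found once in each, on the minus strand, 113 bases before the start of *Selenbp1* and 103 bases before that of *Selenbp2*, and 13.6% of 32851 promoter windows of this length held it. CCAAT was found on the plus strand of both, 59 and 49 bases before the starts, and a further time on the minus strand of *Selenbp1*, 56 bases before its start, where *Selenbp2* has a substitution (share of all windows 37.4%). In *Selenbp1* the plus-strand and minus-strand CCAAT matches overlap each other, and no CCAAT match overlaps TATAAA. The GC box letters GGGCGG, held by 35.7% of all windows, were in neither. The same was so for the E-box letters CACGTG, held by 7.15%. The nuclear receptor letters AGGTCA were also in neither, against 16.3% of all windows. The forkhead letters TGTTTAC, held by 3.65%, were likewise in neither. A match is a run of letters and not a site of binding.

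The likeness went beyond the promoters. The spliced transcripts that GENCODE pairs with the 2 RefSeq entries had 1712 and 1719 bases. They were 98.5% identical over 1712 columns, with 25 substitutions and no gap. Of the 36-base words of the *Selenbp1* transcript, 63.0% were also in any of the 7 annotated *Selenbp2* transcripts, on either strand. The authors removed reads with a mapping quality under 10, and a read from an identical stretch of exon cannot be placed in 1 of the genes. Most of a gene body is intron, whose sequence was not compared here, and how many reads of each gene were lost or misplaced was not tested. Over the whole promoter windows, which lie mostly before the starts, 16.6% of 36-base words were shared. From the *Selenbp2* start on, 49 of 50 columns were identical, so promoter-proximal reads there may likewise not be placed in 1 of the genes.

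*Selenbp2* had few polymerases left in the KO livers. In the promoter-proximal region, the 50 bp window with most reads near the start, normalized reads were 90.6 in WT1 and 114 in WT2 against 7.43 in KO1 and 12.1 in KO2. Normalized reads are read counts multiplied by 1 factor per library. Both KO libraries lay far below both WT libraries, which restates the difference that *Selenbp2* was proposed for. The mean went from 102 ± 16.5 to 9.79 ± 3.34 (SD, n = 2 libraries each), a 10.5-fold lower level. The log2 fold change was -3.29 (SE 0.40, on log2 of normalized reads plus 1). The KO values rest on 7 and 8 reads (95% Poisson intervals of 2.81 to 14.42 and 3.45 to 15.76 reads, which cover counting error only), against 79 and 114 reads in WT. These few reads leave the size of the promoter-proximal difference less precise than that of the gene body.

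In the gene body, counted from 1 kb after the start to the end of the gene, normalized reads of *Selenbp2* were 1564 for WT1 and 1401 for WT2 against 186 for KO1 and 191 for KO2. These values come from 1363, 1401, 175 and 126 reads. The KO libraries again lay far below the WT libraries and close to each other. The mean went from 1482 ± 115 to 188 ± 4.01, so that 12.7% of the WT level was left (log2 fold change -2.97, SE 0.14). The gap between libraries of 1 genotype was 0.16 log2 units in WT and 0.04 in KO.

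*Selenbp1* gave a different picture in each region. Its promoter-proximal reads were 126 and 124 in WT1 and WT2 and 141 and 141 in KO1 and KO2, from 110, 124, 133 and 93 reads. The KO libraries were slightly above the WT libraries, by a log2 fold change of 0.17 (SE 0.34) that did not pass the test (limma with Benjamini-Hochberg adjustment over 12705 active genes, adjusted p = 0.693). A gene counted as active if it had any promoter-proximal read and if its gene body held on average over 4 normalized reads per kb. The median active gene had a promoter-proximal log2 fold change of 0.56, so *Selenbp1* lay 0.39 below it (-0.39 relative to the median). When each region was scaled on its own reads, the change of *Selenbp1* turned to -0.39 (adjusted p = 0.329), and across all alternatives its adjusted p ranged from 0.256 to 0.859.

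The gene body reads of *Selenbp1* fell. They were 770 and 715 normalized reads in WT1 and WT2 and 432 and 405 in KO1 and KO2, from 671, 715, 407 and 267 reads. Both KO libraries lay below both WT libraries. The mean went from 742 ± 38.8 to 419 ± 18.6, which is 56.4% of the WT level (log2 fold change -0.83, SE 0.13, limma adjusted p = 2.62e-05). The median active gene changed by -0.09 in the gene body. With 2 against 2 libraries the smallest two-sided p of an exact permutation test is 0.33, so the p given here rests on the spread shared across all active genes.

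**Figure D1:**
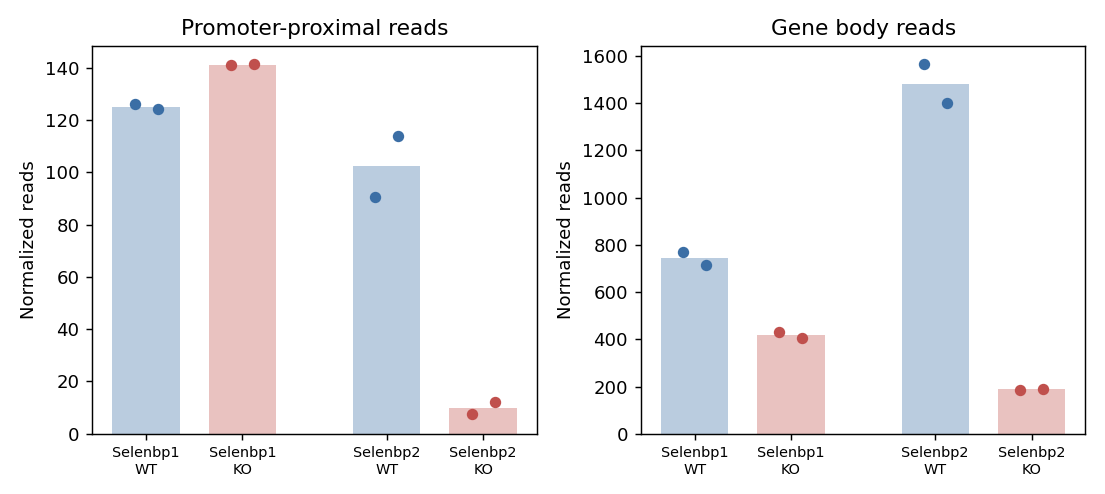
Normalized reads (y axes, linear, from 0) of Selenbp1 and Selenbp2 in the promoter-proximal region (left) and in the gene body (right), with WT in blue and KO in red. Points are the 4 libraries and bars are means of 2 libraries. Selenbp2 is near the bottom in both KO libraries in both regions (7.43 and 12.1, and 186 and 191), while promoter-proximal reads of Selenbp1 lie between 124 and 141 in all 4.

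Set against all active genes, *Selenbp2* stood at an edge. Only 3 of the 12705 active genes had a lower promoter-proximal log2 fold change than *Selenbp2*, which ranked 4 from the lowest. They were *H19* (-4.16), an imprinted noncoding RNA of fetal liver, *Npnt* (-3.51), which encodes a matrix protein, and *Dio3* (-3.29), a thyroid hormone deiodinase. In the gene body *Selenbp2* ranked 17 from the lowest, and 1 gene, *H19* (-3.98 in the gene body), was lower than *Selenbp2* in both regions. *Selenbp1* ranked 2871 from the lowest in the promoter-proximal region and 962 in the gene body. These ranks of *Selenbp2* restate the values it was proposed for.

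For background, 2.2% of the active genes were called lower in KO and 25.8% higher in the promoter-proximal region, 280 and 3282 of 12705. Calls had to pass 0.05 in the adjusted p and 0.6 in absolute log2 fold change. When each region was scaled on its own reads (TMM), 949 were called lower and 638 higher. Leaving out 1 library gave 83 to 182 lower and 319 to 3522 higher, with the fewest in both directions without KO2, and a replicate block gave 177 and 1772. In the gene body 11.4% were called lower (1449 genes) and 10.4% higher (1324 genes). *Selenbp1* was among the 1449. The promoter-proximal log2 fold change was above 0 in 517 of them (35.7%), as in *Selenbp1*, against 84.2% of all active genes. With each region scaled on its own reads (TMM), it was above 0 in 84 of 1192 (7.05%), against 49.8% of all active genes, and *Selenbp1* was not among the 84. In the deposited scaling, 246 (17.0%) were also called lower in the promoter-proximal region, and 30 (2.07%) were called higher there.

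**Figure D2:**
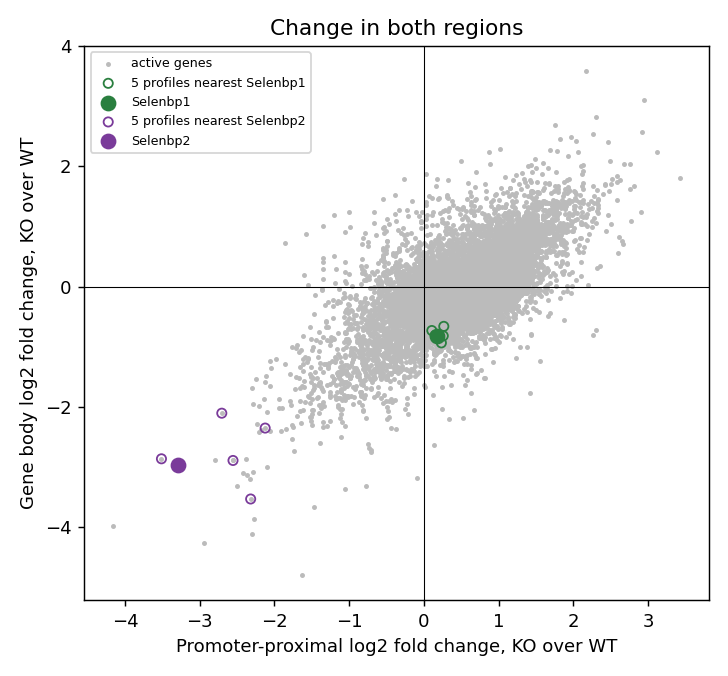
Log2 fold change (KO over WT) in the promoter-proximal region (x axis) and in the gene body (y axis) for 12705 active genes in grey. Filled circles are Selenbp1 (0.17, -0.83) and Selenbp2 (-3.29, -2.97), and open circles are the 5 genes with the nearest profile to each. Selenbp1 lies toward the lower left of the main cloud, and Selenbp2 lies in the sparse lower left corner.

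The order of the 2 genes reversed between the genotypes. Per kb of gene body, the WT1 and WT2 values of *Selenbp2* were 159 and 142 normalized reads, and *Selenbp1* had 72.1 and 67.0. In KO1 and KO2, *Selenbp2* had 18.9 and 19.5 normalized reads per kb and *Selenbp1* had 40.4 and 38.0. *Selenbp2* was thus the more densely transcribed gene in both WT libraries and the less densely transcribed gene in both KO libraries. Its gene body density was higher than that of 93.7% and 92.0% of active genes in WT1 and WT2 and than that of 25.8% and 29.0% in KO1 and KO2. For *Selenbp1* these shares were 77.5% and 73.6% in WT and 54.6% and 54.3% in KO.

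A ratio of the genes within a library does not depend on how libraries were scaled. The gene body density of *Selenbp2* over that of *Selenbp1* was 2.21 and 2.13 in the WT libraries and 0.467 and 0.512 in the KO libraries. On the log2 scale, the mean ratio of KO minus that of WT was -2.15, while libraries of 1 genotype differed by 0.05 in WT and 0.13 in KO. In the promoter-proximal region the ratio was 0.718 and 0.919 in WT1 and WT2 and 0.0526 and 0.0860 in KO1 and KO2. Here *Selenbp2* was the lower gene in all 4 libraries, and the log2 difference between the genotypes was -3.59, with gaps of 0.36 and 0.71 within WT and KO. The ratio shows unequal change of the genes and not which of them changed. The sum over both genes was 2334 and 2116 normalized gene body reads in WT and 617 and 597 in KO.

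The pausing index divides promoter-proximal density by gene body density and measures how far polymerases gather near the start. With 1 normalized read added to each region, that of *Selenbp1* was 35.2 and 37.3 in WT1 and WT2 and 70.1 and 74.7 in KO1 and KO2. Both KO values were above both WT values. The log2 change of 0.998 (SE 0.41) did not pass the test at an adjusted p of 0.0734 (limma), and it was past the threshold in 3 of 16 alternatives, with adjusted p from 0.0178 to 0.611 over all of them. With each region scaled on its own reads, the change of *Selenbp1* was only 0.35 (limma adjusted p = 0.582 with median of ratios and 0.581 with TMM). In the deposited scaling the median change over all active genes was 0.61, and 12.4% (1574) were called higher.

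The pausing index of *Selenbp2* was 11.5 and 16.1 in WT1 and WT2 and 8.88 and 13.4 in KO1 and KO2. The groups overlapped, and the log2 change of -0.32 (SE 0.45) was smaller than its error. The change became 0.40 with 10 in place of 1 normalized read added and -0.94 with each region scaled on its own reads, so whether its reads were lower by like factors in both regions depended on the processing. In WT livers *Selenbp2* had the lower pausing index of the pair and the higher gene body density.

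**Figure D3:**
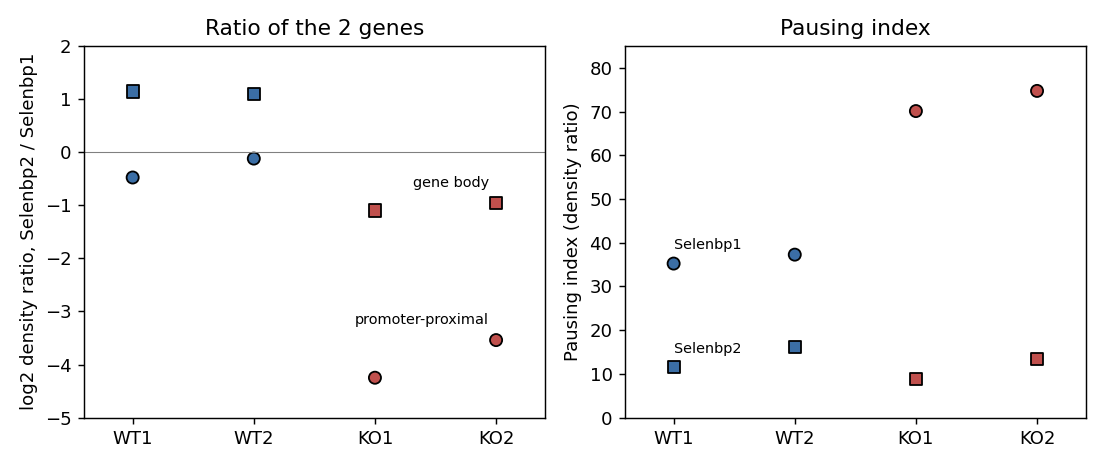
Left, log2 ratio of Selenbp2 to Selenbp1 density (y axis) in each library (x axis), with squares for the gene body and circles for the promoter-proximal region. Right, pausing index (y axis, linear) of Selenbp1 (circles) and Selenbp2 (squares) in each library. WT is blue and KO is red. The gene body ratio crosses 0 between the genotypes, and the promoter-proximal ratio is below 0 in all 4 libraries. In the deposited scaling shown, only the pausing index of Selenbp1 separates the genotypes.

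The liver held other cell types, whose markers moved with genotype. Of 7 hepatocyte markers, 6 were in the table, and 4 fell in the gene body (*Alb*, the serum protein albumin, -0.89; *Apoa1* -1.76; *Hnf4a* -1.53; *Cps1* -1.40). The summed gene body reads of the 6 went from 280862 and 281829 in WT to 136215 and 131184 in KO. The promoter-proximal log2 fold changes of the 6 spanned -1.20 to -0.42, beside 0.17 for *Selenbp1* and -3.29 for *Selenbp2*. In the gene body those of the 6 spanned -1.76 to -0.30, beside -0.83 for *Selenbp1* and -2.97 for *Selenbp2*. All 5 stellate cell markers rose (sums of 8657 and 9663 against 18161 and 16575), as did 3 of 5 endothelial markers (51483 and 56027 against 96211 and 85946). Under median-of-ratios or TMM scaling all 5 endothelial markers were called higher. Of all active genes, 11.4% were called lower and 10.4% higher in the gene body. Of 5 Kupffer cell and leukocyte markers 0 were called in the gene body by limma, edgeR or DESeq2 (3 had an unadjusted limma p under 0.05, all higher, and limma called *Cd5l* higher under median-of-ratios and TMM scaling), and their sums were 18524 and 18370 against 24549 and 20248. All 4 erythroid markers fell (sums of 725 and 930 against 330 and 258), and 1 of the 2 active cholangiocyte markers fell, with 4 markers in the table at sums of 100 to 167 reads. No marker list was at 0 in any library. The part of cell composition in the changes of *Selenbp1* and *Selenbp2* was not tested. In bulk nuclei, fewer cells of a type and less transcription per cell cannot be told apart.

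Depth was 22801905 and 26190040 reads on genes in WT1 and WT2 and 24049791 and 16628518 in KO1 and KO2. The share of these reads in promoter-proximal windows was 10.3% and 9.38% in WT and 13.6% and 17.0% in KO, so the promoter-proximal scale moved with genotype, and the smallest library, KO2, had the highest share. Its part in the promoter-proximal values of *Selenbp1* and *Selenbp2* was not tested beyond the scaling within each region given above.

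Between the pair lie 3 genes, with smaller differences than that of *Selenbp2*. *Pogz*, a chromatin-associated zinc finger protein, had a gene body log2 fold change of -0.27 (adjusted p = 0.0529 by limma), and *Psmb4*, a proteasome subunit, had -0.15 (adjusted p = 0.601). *Psmb4* rose in the promoter-proximal region (0.79), a call lost when each region was scaled on its own reads. *Cgn*, a tight junction protein, fell in the gene body (-0.68, SE 0.14, adjusted p = 0.000406), a call also lost under the other scalings. The nearest active genes on the outer sides were *Tuft1* beyond *Selenbp2*, which fell (-1.83, SE 0.13), and *Rfx5* beyond *Selenbp1*, a regulator of MHC class II genes, at 0.08 (SE 0.15, adjusted p = 0.687). *Tuft1* had 1062, 1190, 331 and 301 normalized gene body reads in WT1, WT2, KO1 and KO2.

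Within 500 kb of either gene the table held 40 other symbols, of which 32 were active. In the gene body 5 of the 32 fell and 1 rose, beside 11.4% and 10.4% of all active genes, and the median log2 fold change was -0.10, against -0.09 for all active genes. Among the largest changes were those of *Lingo4* (-1.85), *Tuft1* and *Sema6c*, which rose (0.97). *Them4*, an acyl-CoA thioesterase, fell by 0.96 on the log2 scale. *Lingo4*, *Tuft1* and *Them4* lie on the far side of *Selenbp2* from *Selenbp1*. In the promoter-proximal region 4 rose (*Tnfaip8l2* 0.99, *Gabpb2* 0.94, *Scnm1* 0.93 and *Psmb4*) and 1 fell (*Lingo4*, -1.12), beside 25.8% higher and 2.2% lower of all active genes. With each region scaled on its own reads, limma called 4 lower and 0 higher, so the direction of this group's promoter-proximal changes depended on the scaling.

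**Figure D4:**
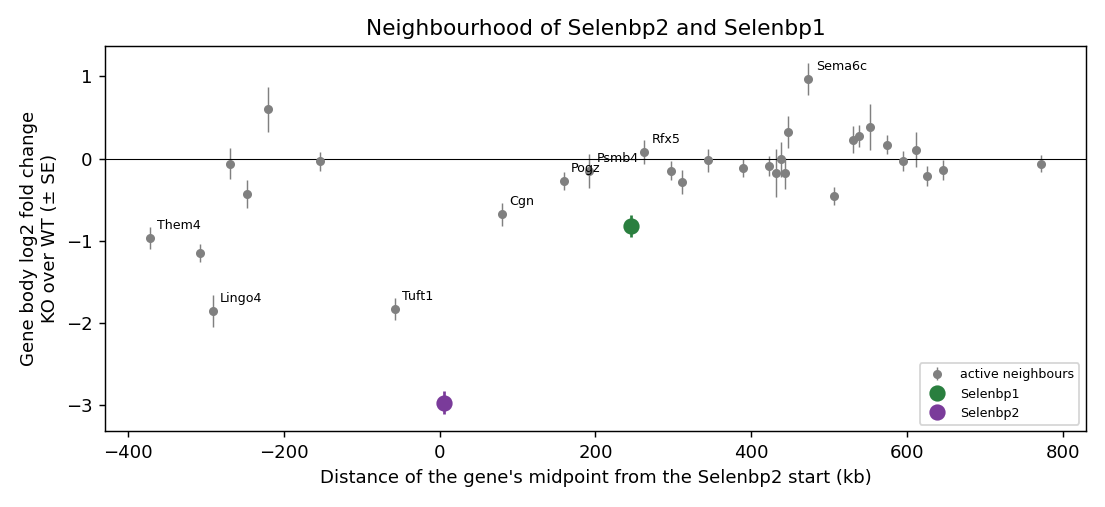
Gene body log2 fold change (KO over WT, with SE, y axis) of the 32 active neighbours in grey, Selenbp2 in purple and Selenbp1 in green, by the distance of the gene's midpoint from the Selenbp2 start in kb (x axis). Selenbp2 is the lowest point at -2.97, Tuft1 and Lingo4 come next at -1.83 and -1.85, and most genes to the right lie near 0.

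The deposited enhancer list placed no enhancer within 50 kb of either gene, and neither was the closest gene of any. Enhancers in the list are pairs of divergent transcripts outside known genes, called on the reads of all libraries together, so the list holds no value per genotype. A single enhancer lay within 500 kb, at chr3:94821074-94822179 (mm10, 1105 bp), in the interval between the genes, 127948 bp from the *Selenbp2* start and 111562 bp from the *Selenbp1* start. The list gave *Pogz* as its closest gene, at 15388 bp. The coordinates used here place *Pogz* at chr3:94822989-94883577, so that gene begins close past the enhancer's end. Whether the transcripts belong to an enhancer or to a start of *Pogz* was not tested. Chromosome contacts collected by 4DGenome linked it to *Selenbp2* as 1 of 19 genes, from Th1, ESC and NPC cells and not from liver. *Selenbp1* was linked to 2 enhancers on chromosome 15 (chr15:97575934-97577712 and chr15:97580811-97582965), which were linked to 32 and 30 genes. Linked genes had a median of 2 links over 13652 genes in the list of 2282 enhancers.

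Selenoproteins carry out much of the work that selenium does in cells. Of 24 selenoprotein genes, 23 were in the table and 20 active. *Txnrd1*, the cytosolic thioredoxin reductase, was not among the active genes because its table row listed 0 promoter-proximal reads in all 4 libraries. In the gene body 4 of the 20 fell and 3 rose, beside 11.4% and 10.4% of all active genes, with a median log2 fold change of -0.34 against -0.09. *Dio3* fell in both regions (-2.91, SE 0.78 in the gene body), but it had only 14.9, 8, 0 and 1.52 normalized gene body reads in the 4 libraries. *Dio1*, the hepatic deiodinase that activates thyroid hormone, fell from 2397 and 2184 to 699 and 940 (-1.50, SE 0.13), and it fell in the promoter-proximal region as well (-1.51).

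The mitochondrial selenoprotein gene *Selenoo* fell (-1.003), and *Gpx1*, the abundant cytosolic glutathione peroxidase, fell from 120 and 112 to 56.2 and 66.8 gene body reads (-0.91). The 3 that rose in the gene body were *Selenom* (1.57, on 9 to 33.9 normalized reads), *Gpx4*, which reduces lipid peroxides (0.76), and *Selenon* (0.63). In the promoter-proximal region 3 of the 20 rose and 2 fell, beside 25.8% and 2.2% of all active genes. The 3 were *Selenom*, *Selenon* and *Selenow* (1.33), and *Selenon* lost its call when each region was scaled on its own reads. *Selenop*, the plasma selenium carrier that liver secretes, had 19331 and 14795 gene body reads in WT and 16144 and 16191 in KO (-0.06, adjusted p = 0.717). The median promoter-proximal change of the list was 0.36, below the 0.56 of all active genes.

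Of 10 genes of selenium uptake and selenocysteine synthesis, 8 were active, and 2 fell in the gene body (11.4% of all active genes did), *Pstk* (-0.77), the kinase that acts on seryl-tRNA, and *Sepsecs* (-0.67), which makes selenocysteinyl-tRNA in the following step. The *Sepsecs* call was lost when gene bodies were rescaled by median of ratios or TMM. The median was -0.24. In the promoter-proximal region, where 25.8% of active genes rose, 1 of the 8 did (*Trnau1ap*, 0.83), a call lost under scaling within the region. *Lrp8* and *Lrp2*, receptors for Selenop, were under the activity cutoff and were not tested. *Lrp8* had 98.7 and 118 normalized gene body reads in WT and 284 and 269 in KO. *Lrp2* had 13.8 and 16 in WT and 20.2 and 34.9 in KO.

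Methanethiol and hydrogen sulfide, the substrate and a product of Selenbp1, belong to sulfur metabolism, and all 13 genes of that list were active. In the gene body 5 fell and 0 rose by limma, edgeR and DESeq2, with a median of -0.48 (11.4% of all active genes fell, with a median of -0.09), and 9 lower and 1 higher had an unadjusted limma p under 0.05. *Got1*, the cytosolic aspartate aminotransferase, fell from 16909 and 19473 to 5296 and 3589 normalized reads (-2.06, SE 0.14). *Cdo1*, cysteine dioxygenase, fell from 14093 and 11293 to 4321 and 4072 (-1.59, SE 0.12). *Cbs*, which condenses homocysteine with serine, fell by 1.22 on the log2 scale and *Suox*, sulfite oxidase, by 0.81. *Mpst*, the sulfurtransferase that releases sulfide, was the fifth at -0.60, a call lost under the other scalings.

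In the promoter-proximal region 3 of the 13 sulfur genes fell, beside 2.2% of all active genes. They were *Got1* (-1.48), *Cdo1* (-1.04) and *Cth* (-1.002), the lyase that makes cysteine from cystathionine. Scaled within the region, 7 fell, as did 949 active genes. The genes that clear sulfide, *Sqor* and *Ethe1*, had gene body changes of -0.37 and -0.23 and were not called, and *Csad*, which leads to taurine, had 0.46. The summed gene body reads of the sulfur list were 62774 and 62976 in WT and 32521 and 30276 in KO. A large part of the WT sums came from *Got1* and *Cdo1*. The sums of the hepatocyte markers fell too, but the median gene body change was -0.48 in the sulfur list and -1.14 in those markers. The part of cell composition here was not tested either. *Selenbp2* was lower than every gene of the 3 lists in the gene body, with *Dio3* next.

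**Figure D5:**
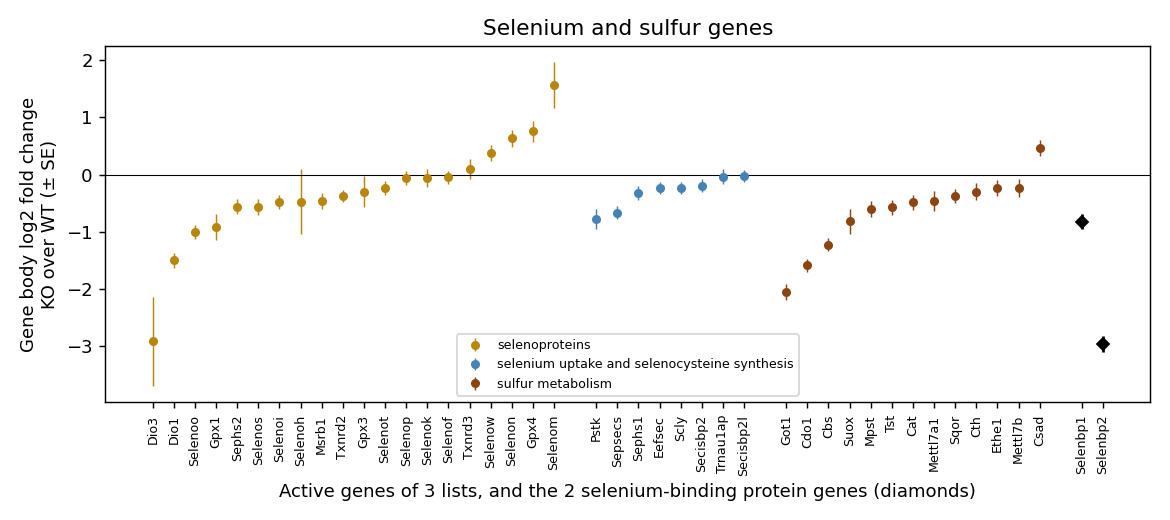
Gene body log2 fold change (KO over WT, y axis) with SE for the active genes (x axis) of 3 lists, 20 selenoprotein genes, 8 of selenium uptake and selenocysteine synthesis and 13 of sulfur metabolism, each ordered by value, and for Selenbp1 and Selenbp2 as diamonds. Most points lie between -1 and 0.5, Selenbp1 lies at -0.83, and Dio3, with the widest error, is the 1 gene near Selenbp2.

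The profiles nearest to those of the pair were sought among the 10661 active genes that averaged 20 or more normalized reads in each region. The measure was the Euclidean distance over 8 values, log2 of normalized reads plus 1 in 4 libraries and 2 regions, each region centred on its mean. Nearest to *Selenbp1* were *Ank* (distance 0.12), a pyrophosphate transporter, *0610011F06Rik* (0.19), *Echs1* (0.20), an enzyme of mitochondrial β-oxidation, *As3mt* (0.21), which methylates arsenic, and *Nadsyn1* (0.22), which makes NAD. Their gene body log2 fold changes ran from -0.94 to -0.66 and their promoter-proximal changes from 0.11 to 0.27. The median distance of all candidates was 1.04. The measure was not scaled for the size of a change, so a gene with small changes lies near many others.

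By this measure no gene lay close to *Selenbp2*. Its large changes alone place it far from most genes, and its profile includes the promoter-proximal values it was proposed for. Its nearest genes were *Serpina3k* (distance 1.17) and *Serpina3m* (1.25), serine protease inhibitors of 1 cluster on chromosome 12, then *Gm1082* (1.39), *Zfp750* (1.46) and *Npnt* (1.48), and the median distance of all candidates was 4.84. *Serpina3k* had 150 and 104 promoter-proximal reads in WT and 21.2 and 19.7 in KO, with 1822 and 1675 against 285 and 193 in the gene body. In KO its promoter-proximal reads were above the 7.43 and 12.1 of *Selenbp2*. *Serpina3k* and *Serpina3m* have near copies in their cluster too, so their reads may be shared. *Selenbp1* ranked 1082 among the candidates nearest to *Selenbp2*, at a distance of 4.10, and *Selenbp2* ranked 10654 of 10661 among those nearest to *Selenbp1*.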

How the data were processed

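PRO-seq libraries of 4 pools of liver nuclei (2 WT, 2 *Hdac3* KO) were used. The authors trimmed reads (cutadapt), aligned them with Bowtie2 to mm10, dropped ribosomal RNA and mapping quality under 10, and counted with NRSA on RefSeq transcripts. The deposited WT2 values equal read counts. The other deposited columns hold normalized signal, counts times 1 factor per library (1.15 in WT1, 1.06 in KO1 and 1.52 in KO2). Dividing by the factor gave whole reads (within 0.01) for 100% of the 41640 values of each library. Densities in the deposited table are signal per bp.

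The 2 genes and all gene lists were chosen with earlier results of these data known. A symbol with several transcripts was represented by the one highest in mean promoter-proximal reads. Log2 of normalized reads plus 1 was compared with limma 3.58.1 in R 4.3.3 (trend, empirical Bayes, no block), with Benjamini-Hochberg adjustment over 12705 active genes, since count models were not the main test for normalized values. Alternatives used DESeq2 1.42.0 and edgeR 4.0.16 on recovered reads, other scalings, pseudocounts of 0.1 and 10, other filters, thresholds and transcripts, a replicate block and leaving out each library. The pausing index was tested with limma and not with the stratified read test of the study's methods. The procedure was tested on simulated data.

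Genes named are the pair, the called genes of each list (at most 4 per list and region, largest change first), genes between the pair and the nearest active gene on each side, the 5 nearest profiles, and linked enhancers, except 1 gene that is not reported here. Marker genes and *Hdac3* serve as checks, and *H19*, *Txnrd1*, *Selenop*, *Lrp8*, *Lrp2*, *Sqor*, *Ethe1*, *Csad*, *Them4* and *Mpst* were named after their values were seen. RefSeq promoter windows matched both genes, transcripts came from GENCODE vM21, and coordinates matched 20513 of 20642 symbols. Nothing in the labels ties the pools to separate litters or days, so p-values measure the spread between these pools.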

Additional observations from a re-analysis of the deposited data

How the results depend on the processing

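The gene body changes held in every alternative run: *Selenbp1* kept its call in all 18 (-0.88 to -0.74, adjusted p from 2.02e-07 to 0.0445), and *Selenbp2* ranged from -3.05 to -2.89 in 17. Scaling each region on its own reads (median of ratios or TMM) turned the promoter-proximal change of *Selenbp1* to -0.39 and its pausing index change to 0.35. The same scaling moved the promoter-proximal change of *Selenbp2* to -3.83 and its pausing index change to -0.94. It also changed the promoter-proximal calls from 280 lower and 3282 higher to 942 and 634 (median of ratios) or 949 and 638 (TMM). A pseudocount of 10 gave *Selenbp2* -2.51 and a pausing index change of 0.40, and *Selenbp1* a pausing index change of 0.97 (adjusted p = 0.0381, limma, in a range of 0.0178 to 0.611). DESeq2 called 176 genes lower in the promoter-proximal region. With no threshold on the fold change, 2807 genes were lower and 2161 higher in the gene body, with 34 list members called in place of 20.

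With no filter on activity, limma called 0 genes lower and 0 higher in the promoter-proximal region (0 list members in place of 14), with 4606 of 20642 at an unadjusted p under 0.05, and 589 lower and 406 higher in the gene body (4 list members). edgeR and DESeq2 were run on active genes alone, where edgeR called 265 lower and 3251 higher. The replicate block gave 177 lower and 1772 higher promoter-proximal calls and 9 list members. It changed no call of *Selenbp1*. Labels give no pairing by number, and the deviations of same-numbered libraries correlated at -0.105 (promoter-proximal) and 0.019 (gene body). Crossed numbers, an alternative chosen after seeing the data, gave 399 lower and 4861 higher, with 22 list members and a *Selenbp1* pausing index change of 1.0 past the threshold.

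Leaving out 1 library at a time gave *Selenbp1* gene body changes of -0.88 to -0.77, promoter-proximal changes of 0.16 to 0.19 and pausing index changes of 0.95 to 1.04, the highest both without KO1 (adjusted p = 0.0355, past the threshold) and without WT2 (adjusted p = 0.611). *Selenbp2* ranged from -3.61 to -2.97 (promoter-proximal), -3.05 to -2.89 (gene body) and -0.62 to -0.02 (pausing index). Promoter-proximal calls ranged from 83 to 182 lower and from 319 to 3522 higher, lowest without KO2 in both directions, and list members from 3 to 12, with 3 without WT1 and 4 without WT2 or without KO2. Without WT1, 93 were lower and 703 higher, without WT2 103 and 493, and without KO1 182 were lower. Gene body calls ranged from 1308 to 1588 lower, 1010 to 1500 higher and 17 to 26 list members. Genotypes left with 1 library were assumed to vary like the other. The causes were not tested. Depth limits the promoter-proximal value of *Selenbp2*, which rests on 7 and 8 reads in KO.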
